A study of Mus musculus with 18 samples.

Results

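Thermogenic adipocyte genes are here a set of 9 genes tied to brown and beige fat cells: Ucp1, Cidea, Ppargc1a, Dio2, Elovl3, Prdm16, Kcnk3, Ppara and Otop1. The name does not mean that each of them promotes heat production. They were picked by symbol, with no threshold on a measured value, and were 9 of the 33440 genes to which reads could be assigned in these 18 mouse RNA-seq libraries. Their levels were read in 2 experiments on interferon regulatory factor 3 (IRF3), an innate immune transcription factor, in adipocytes of C57BL/6 mice. In the first, stromal vascular fraction (SVF) cells from inguinal white fat of IRF-2D mice (so spelled in the labels, IRF3-2D in the study's text), which carry a Cre-dependent, constitutively active IRF3 mutant, were differentiated with insulin, dexamethasone, IBMX and the PPARγ agonist rosiglitazone. These cultures received AAV with GFP (WT SVF, 3 libraries) or AAV with Cre (FI3OE SVF, 3 libraries) on day 6 and were harvested on day 8. WT SVF cultures therefore held the same allele, unrecombined, and Cre itself cannot be told apart from the mutant IRF3. In the second, translating ribosome affinity purification (TRAP) pulled GFP-tagged ribosomes from epididymal white fat of mice (male and 8 weeks old at the start of the diet, per the study's general methods) kept for 8 weeks on a high-fat diet (HFD) at thermoneutrality, 6 libraries each from WT and from adipocyte IRF3KO mice (FI3KO). The lines are named Ad-NuTRAP and FI3KO-Ad-NuTRAP. The NuTRAP ribosome tag needs Cre, and the study lists Adipoq-Cre among its strains. This driver would then serve for the tag in both groups and for the Irf3 deletion in FI3KO.

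Brown and beige adipocytes burn fuel in mitochondria whose proton gradient is dissipated by UCP1, a carrier of the inner membrane. Cold acts through noradrenaline, β-adrenergic receptors and cAMP to raise PPARGC1A and Dio2, and PRDM16 and PPARα act with PPARGC1A in the nucleus to hold the program in place. Thermoneutrality removes the cold stimulus, epididymal fat is a white depot with little browning capacity, and inguinal precursors given a PPARγ agonist are known to turn partly beige. These are background facts and not results of these libraries.

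The promoters shown are those of the 4 thermogenic genes that were called lower in FI3OE adipocytes and have an entry among the RefSeq promoters used here (GRCm38.p6). Of the 9 genes, 6 had an entry. Each run is the 250 bases before the RefSeq start, 5′ to 3′ on the gene's own strand, with matches to TGACG, the core of the cAMP response element, in capitals (on either strand, so that CGTCA marks the opposite strand).
Otop1, chr5:38277154-38277403, plus strand: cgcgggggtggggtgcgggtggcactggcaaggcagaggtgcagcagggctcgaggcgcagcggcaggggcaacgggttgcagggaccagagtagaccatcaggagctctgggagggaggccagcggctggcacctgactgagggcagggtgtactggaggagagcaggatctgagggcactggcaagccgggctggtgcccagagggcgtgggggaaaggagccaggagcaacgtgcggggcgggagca
Ppara, chr15:85735526-85735775, plus strand: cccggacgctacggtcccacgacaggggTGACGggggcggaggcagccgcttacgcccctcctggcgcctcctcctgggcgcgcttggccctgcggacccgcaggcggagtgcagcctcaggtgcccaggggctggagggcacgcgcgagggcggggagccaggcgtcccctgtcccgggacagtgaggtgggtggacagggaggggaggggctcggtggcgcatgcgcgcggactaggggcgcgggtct
Prdm16, chr4:154636874-154637123, minus strand: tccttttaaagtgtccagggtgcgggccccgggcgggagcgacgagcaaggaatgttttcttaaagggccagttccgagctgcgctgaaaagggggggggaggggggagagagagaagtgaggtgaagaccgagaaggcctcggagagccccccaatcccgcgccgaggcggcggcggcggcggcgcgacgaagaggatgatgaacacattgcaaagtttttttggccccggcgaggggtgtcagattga
Ppargc1a, chr5:51567726-51567975, minus strand: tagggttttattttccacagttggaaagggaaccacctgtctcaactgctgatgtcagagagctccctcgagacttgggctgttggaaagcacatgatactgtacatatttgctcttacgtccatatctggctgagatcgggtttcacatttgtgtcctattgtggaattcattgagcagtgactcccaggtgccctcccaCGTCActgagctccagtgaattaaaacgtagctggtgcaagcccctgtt
The G and C content of these runs was 70.0% for Otop1, 76.4% for Ppara, 62.4% for Prdm16 and 48.0% for Ppargc1a. Letters were searched on both strands of all 300 bases of each entry, which go on to 50 bases after the start. The IRF repeat GAAANNGAAA was in none of the 6 promoters and in 3.44% of all 32851 promoters, and the PPAR repeat DR1 (AGGTCANAGGTCA) was in none of the 6 and in 0.0396% of all. The complete cAMP response element TGACGTCA was in the Dio2 promoter, starting 95 bases before the start, and in 1.79% of all promoters. Its core TGACG, which that site contains, was also in Ppara (222 bases before the start), Ucp1 (147 bases before) and, on the minus strand, Ppargc1a (49 bases before), and in 20.8% of all. The Otop1 transcript that starts at this RefSeq base, Otop1-202, held 97.5% of the gene's TPM in WT TRAP, and Ppara-202 held 40.4% of that of Ppara in WT SVF. For Prdm16 the transcript at this base, Prdm16-207, held 12.4% of the gene's TPM in WT SVF, and for Ppargc1a the nearest, Ppargc1a-202, was listed at 0 there.

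Library sizes were 21541334 to 36932452 estimated reads in SVF and 25259869 to 40490283 in TRAP, so 3 reads were worth 0.0741 to 0.139 CPM (reads scaled to the library total). Irf3 was 57.4 ± 1.0 CPM in WT SVF and 94.4 ± 5.2 in FI3OE SVF (SD, n = 3 each; log2 fold change 0.73, edgeR quasi-likelihood adjusted p = 3.3e-07). In TRAP it was 20.4 ± 2.1 CPM in WT and 15.5 ± 2.2 in FI3KO (SD, n = 6 each; log2 fold change −0.35, edgeR adjusted p = 0.0198), with ranges of 17.2 to 23.2 and 12.4 to 18.8 that overlapped. The IRF3 targets Isg15, Ifit1 and Ccl5 rose by 1.88, 2.08 and 3.46 on the log2 scale in FI3OE SVF, while in FI3KO TRAP Isg15 (−0.46, edgeR adjusted p = 0.149) and Ifit1 (−0.17, edgeR adjusted p = 0.665) were not called and Ccl5 was not tested. WT TRAP 1 and 2 were far closer to each other than any other TRAP pair (chi-square per degree of freedom 2.60, against 9.67 for the next closest) but differed by more than counting error. They were kept as 2 libraries, and results on TRAP are given with them summed as 1 where that changed a call. The 10 adipocyte markers were detected in every group. The 17 macrophage markers were detected too, with a sum of 2720 to 2900 CPM in WT SVF, 2766 to 2820 in FI3OE SVF, 46.5 to 129 in WT TRAP and 19.3 to 54.2 in FI3KO TRAP, so the SVF cultures held other cells beside adipocytes. In bulk RNA, fewer cells of a type and less RNA per cell cannot be told apart.

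The baseline question was which of these genes the WT adipocytes expressed at all. Levels were compared between genes as TPM, which corrects read counts for transcript length and library size. In WT SVF the highest was Kcnk3, a potassium leak channel of the plasma membrane, at 37.5 ± 0.84 TPM (SD, n = 3). It was followed by the regulators Ppara, a nuclear receptor for fatty acids, at 16.2 ± 1.9, Ppargc1a, the coactivator of mitochondrial biogenesis, at 7.69 ± 0.81, and Prdm16, the coregulator of brown fat identity, at 7.05 ± 2.1 TPM. Elovl3, an elongase of very long chain fatty acids, stood at 5.37 ± 1.1 TPM, and Cidea, a lipid droplet protein of brown fat, at 1.72 ± 0.50. Otop1, a proton channel, stood at 0.654 ± 0.13, Dio2, the deiodinase that activates thyroid hormone, at 0.107 ± 0.038 and Ucp1 at 0.0466 ± 0.046 TPM. Neighbours whose ranges overlapped were Ppargc1a with Prdm16, Prdm16 with Elovl3, and Dio2 with Ucp1. The order depended on the unit. By CPM, Ppargc1a (rank 2) came above Ppara (rank 3) and Otop1 (rank 6) above Cidea (rank 7). The TPM of Prdm16 rested in part on short transcripts with few reads. Among them Prdm16-209 held 27.6% of it from 1.20 to 10.6 reads in a library.

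In WT TRAP the order began with Kcnk3 at 99.0 ± 13 TPM and Ppara at 10.9 ± 2.6 (SD, n = 6), whose ranges did not overlap. Otop1 was next at 7.92 ± 4.5 TPM, then Prdm16 at 2.58 ± 0.27, Ppargc1a at 1.90 ± 0.29, Dio2 at 1.32 ± 0.62 and Cidea at 1.07 ± 0.40. Elovl3, at 0.0828 ± 0.053, and Ucp1, at 0.0364 ± 0.047 TPM, were at or near the counting floor, and the ranges of Cidea and Elovl3 did not overlap. All other neighbours in this order overlapped. By CPM, Otop1 (rank 2) came above Ppara (rank 3) and Dio2 (rank 5) above Ppargc1a (rank 6).

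**Figure D1:**
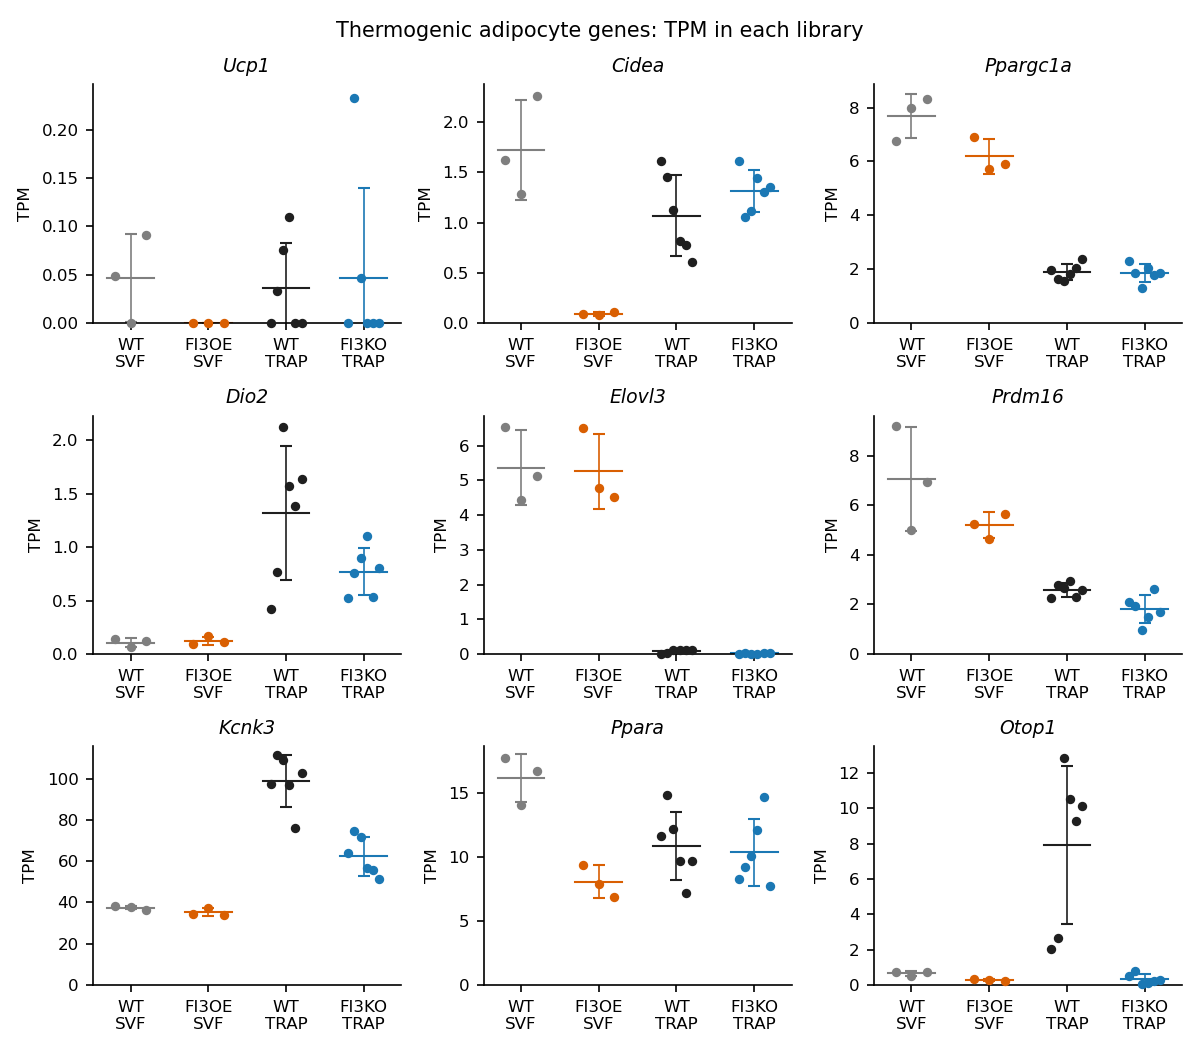
TPM of each of the 9 thermogenic genes (vertical axes, each with its own scale from 0) in WT SVF, FI3OE SVF, WT TRAP and FI3KO TRAP. Points are libraries, the long line is the mean and the bars are ± 1 SD, drawn down to 0 where they would go below it; Cidea sits at 0.0758 to 0.111 TPM in FI3OE SVF, and Otop1 falls into separate low and high libraries within WT TRAP.

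Ucp1 was barely read in any group. It had 1, 0 and 2 reads in the 3 WT SVF libraries, 0 in each FI3OE SVF library, 0 to 3 (median 0.5) in WT TRAP and 0 to 6 (median 0) in FI3KO TRAP. A single library, FI3KO TRAP 2 with 6 reads or 0.193 CPM, was above the 3-read floor. Ucp1 did not pass the filter of the count test in any comparison. On log2(CPM + 0.1), exact two-sided permutation tests gave p = 0.4 for FI3OE against WT SVF (the smallest that 3 against 3 can give is 0.1), p = 1 for FI3KO against WT TRAP (smallest 0.00216) and p = 0.714 for WT TRAP against WT SVF (smallest 0.0119). No difference in Ucp1 was thus detected at this depth, and with so few reads a difference may have been missed.

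Against WT SVF, WT TRAP had more Dio2, Otop1 and Kcnk3 and less Elovl3, Ppargc1a and Prdm16. Tissue, culture, diet and RNA preparation all differ between these groups, so no difference can be tied to any of them. Of all 16454 genes tested, 80.2% were called at an adjusted p of at most 0.05 (38.1% higher and 42.1% lower in WT TRAP), and 46.9% also differed by at least 1 on the log2 scale in either direction (both cutoffs). Of the 9 thermogenic genes 8 were tested, with 3 higher, 3 lower and a median log2 fold change of −0.26, beside −0.07 over all genes, so their share called was near that background.
Dio2 was 0.232 to 0.502 CPM in WT SVF and 1.49 to 7.52 (median 5.33) in WT TRAP, a log2 difference of 4.01 ± 0.56 (SE; edgeR adjusted p = 6.61e-05). Otop1 was 0.696 to 1.05 CPM in WT SVF and 2.75 to 17.2 (median 13.4) in WT TRAP, a difference of 3.96 ± 0.68 (edgeR adjusted p = 2.88e-04). Kcnk3 was 44.1 to 52.5 CPM against 102 to 131 (median 123), a difference of 1.76 ± 0.096 (edgeR adjusted p = 4.26e-08). For these 3 genes every WT TRAP library was above every WT SVF library.
Elovl3 went the other way, from 4.55 to 6.36 CPM in WT SVF to 0 to 0.123 (median 0.107) in WT TRAP, where no library had more than 4 reads (−5.54 ± 0.41 on the log2 scale, edgeR adjusted p = 4.33e-07). Ppargc1a was 17.9 to 20.3 CPM in WT SVF and 2.76 to 4.51 (median 4.03) in WT TRAP (−1.84 ± 0.14, edgeR adjusted p = 4.26e-07). Prdm16 was 10.6 to 12.7 CPM against 4.47 to 7.41 (median 5.53; −0.60 ± 0.16, edgeR adjusted p = 0.00567). Every WT TRAP library was below every WT SVF library for these 3 genes. Ppara (−0.19, edgeR adjusted p = 0.304) and Cidea (−0.33, edgeR adjusted p = 0.415) were not called. Library scaling moved log2 ratios of this comparison by 0.46: before it, all 6 WT TRAP libraries had less Ppara (7.11 to 13.0 CPM) than the WT SVF libraries (15.2 to 17.4 CPM). Dio2 passed the low-count filter through WT TRAP and Elovl3 through WT SVF alone.

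Of 18 other brown and beige adipocyte genes tested, 10 were lower and 6 higher in WT TRAP, with a median of −0.77, and their summed level was 368 to 388 CPM in WT SVF and 319 to 508 in WT TRAP. Lhx8 (−7.12), a transcription factor of brown fat, Tbx1 (−6.88) and Tnfrsf9 (−6.04), both used as beige markers, and Mpzl2 (−4.98) had the largest differences among those called. No reads of Lhx8 or Tbx1 were found in WT TRAP replicates 3 to 6, so the size of their fitted values is uncertain. In the same comparison 16 of 17 macrophage markers were lower (median −4.90) and 9 of 10 adipocyte markers higher (median 2.10), and the part of that difference in cells in these genes was not tested.

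FI3OE against WT SVF asked what active IRF3 did to the program in cultured adipocytes. Cidea, Ppara and Otop1 fell by more than 1 on the log2 scale, Prdm16 and Ppargc1a fell less, and none rose (0 of 8 tested also at an unadjusted p under 0.05 by edgeR, and 0 by DESeq2). Of all 16105 genes tested, 37% were called at an adjusted p of at most 0.05, 20.2% higher and 16.8% lower, and 3.62% passed both cutoffs. Of the 8 thermogenic genes tested, 5 were called, all lower, and 3 passed both cutoffs. Their median log2 fold change was −0.30, beside −0.005 over all genes. The filter asked for 0.406 CPM in 3 libraries, which Cidea met in the WT libraries alone and Otop1 in 3 WT and 2 FI3OE libraries. Cidea could thus be tested only because it was higher in WT. Otop1 passed through WT as well, since its FI3OE libraries alone did not meet the filter.

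Among the regulators, Ppara was 17.4, 16.6 and 15.2 CPM in the 3 WT SVF libraries and 6.89, 7.20 and 8.10 in FI3OE. Every FI3OE library was below every WT library, and the log2 fold change was −1.12 ± 0.090 (SE; edgeR adjusted p = 2.30e-06). Prdm16 was 12.7, 10.6 and 12.7 CPM in WT and 7.95, 9.08 and 10.1 in FI3OE (−0.38 ± 0.11, edgeR adjusted p = 0.0181). Ppargc1a was 17.9, 20.3 and 19.6 CPM in WT and 17.4, 15.1 and 17.0 in FI3OE (−0.21 ± 0.074, edgeR adjusted p = 0.0478). The groups did not overlap for either gene, but the gaps between them were small beside the spread within them.

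Among the effectors, Cidea had 18, 13 and 27 reads in WT SVF (0.753, 0.603 and 1.06 CPM) and 1, 1 and 2 reads in FI3OE (0.0423, 0.0369 and 0.0542 CPM). All FI3OE values lay under the 3-read floor. By pooled reads Cidea was 17.9-fold higher in WT, with a 95% counting interval of 6.64 to 68.1, and the fitted log2 fold change was −4.01 ± 0.51 (edgeR adjusted p = 8.44e-05). With FI3OE under the floor, the size of this fitted value is uncertain. Elovl3 was 6.36, 4.55 and 4.88 CPM in WT and 6.47, 4.69 and 4.55 in FI3OE, a difference of −0.0020 ± 0.17 on the log2 scale (edgeR adjusted p = 0.994). Dio2 was 0.502, 0.232 and 0.433 CPM in WT and 0.338, 0.628 and 0.406 in FI3OE (0.23 ± 0.42, edgeR adjusted p = 0.70). The groups overlapped for Elovl3 and Dio2.

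Of the 2 ion channels, Otop1 had 25, 15 and 26 reads in WT SVF (1.05, 0.696 and 1.02 CPM) and 11 in each FI3OE library (0.465, 0.406 and 0.298 CPM). The groups did not overlap, and the log2 fold change was −1.25 ± 0.33 (edgeR adjusted p = 0.0117). Kcnk3 was 52.5, 44.1 and 50.5 CPM in WT and 49.2, 48.3 and 47.7 in FI3OE, inside the WT range (−0.0037 ± 0.058, edgeR adjusted p = 0.968). The calls of Ppara and Cidea held in all alternatives that gave a value. The call of Ppargc1a was lost in most of them at log2 fold changes of −0.26 to −0.16, those of Prdm16 and Otop1 with all 18 libraries in one fit, that of Prdm16 with a length offset or without FI3OE SVF 1, WT SVF 1 or WT SVF 3 and that of Otop1 without FI3OE SVF 3, WT SVF 1 or WT SVF 3. The log2 fold change of Prdm16 was then −0.38 in the fit of 18, −0.37 with the length offset and −0.35 to −0.30 without those libraries, and that of Otop1 was −1.24 in the fit of 18 and −1.16 to −1.06 without those libraries.

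**Figure D2:**
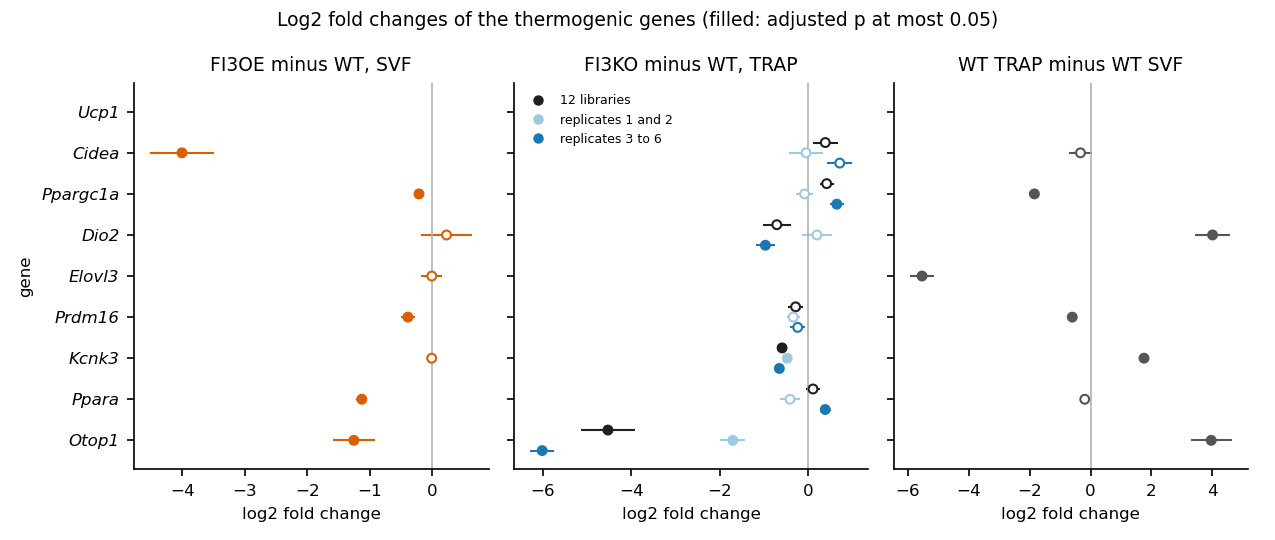
Log2 fold changes with their standard errors (horizontal axes) of the 9 thermogenic genes (vertical axis) for FI3OE minus WT in SVF, FI3KO minus WT in TRAP (12 libraries, replicates 1 and 2, and replicates 3 to 6) and WT TRAP minus WT SVF; filled points have an edgeR adjusted p of at most 0.05 and genes without a point were not tested. Cidea is farthest from 0 in FI3OE at −4.01, and Otop1 in FI3KO at −4.53 over the 12 libraries and −6.01 in replicates 3 to 6.

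Marker sums moved with this comparison. The adipocyte marker sum was 15306 to 15577 CPM in WT SVF and 13449 to 13734 in FI3OE SVF, with 6 of 10 markers lower and 3 higher, among them Adipoq at 0.42 and Car3 at −0.86. Transcripts of the mitochondrial genome were 2.12% to 2.31% of reads in WT SVF and 1.01% to 1.16% in FI3OE SVF. The part of either in the falls of the thermogenic genes was not tested.

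The lists of related genes held calls in both directions in FI3OE, and are read beside the 20.2% of all genes called higher and 16.8% called lower. Of 17 other brown and beige adipocyte genes tested, 6 fell and 4 rose (median −0.18). Tnfrsf9 (−1.72), the respiratory chain subunits Cox8b (−1.40) and Cox7a1 (−0.80), and S100b (−1.21), a secreted calcium-binding protein, had the largest changes among those called. Of 17 thermogenic transcription factors and coactivators, 7 fell and 2 rose (median −0.11): Ppargc1b (−0.88), the close relative of Ppargc1a, Irf4 (−0.82), a partner of PPARGC1A, and Ebf2 (−0.47), a factor of brown fat identity, fell, and Rxrg (0.35), the partner receptor of PPARs, rose. Of 21 adrenergic and cAMP signalling genes, 6 fell and 4 rose (median −0.06). Adrb3, the β3-adrenergic receptor of adipocytes, went from 217 ± 3.1 to 128 ± 1.6 CPM (SD, n = 3; −0.75, edgeR adjusted p = 2.78e-08), Sik2 fell by 0.26 on the log2 scale, and Prkaca, the catalytic subunit of protein kinase A, rose by 0.36.
Of 14 genes known as PPARα targets, 6 fell and 4 rose (median −0.24), in both directions: Vnn1 (1.34), Plin2 (0.77) and Cpt1a (0.72) rose and Acot2 (−1.15) fell. Among 7 genes of creatine and calcium cycling, the routes of heat production that do not need UCP1, Atp2a2 (−0.55), the calcium pump SERCA, and the creatine synthesis enzymes Gatm (−0.53) and Gamt (−0.46) fell, and 2 rose, among them Pm20d1 (1.15), which makes N-acyl amino acids. Of 9 secreted factors of thermogenic fat 6 rose and 2 fell, with Cxcl14 (1.31), Gdf15 (1.10) and Bmp8b (1.10) higher and Fgf21 (−1.15) lower. Of 10 repressors 3 rose, Twist1 (0.39) and Nr1h3 (0.32) among them, and 3 fell, Nrip1 (−0.35) and Zfp423 (−0.33) among them. Of 10 white adipocyte genes 3 fell and 2 rose, led by Agt (−0.74) and Retn (0.58). Among 14 paralogs of the thermogenic genes 7 rose and 1 fell, with Ucp3 (1.43), Dio3 (0.62), which inactivates thyroid hormone, and Elovl5 (0.41) higher and Kcnk6 (−0.40) lower.

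FI3KO against WT TRAP asked the converse, in adipocytes of obese mice at thermoneutrality. Otop1 was far lower in FI3KO and Kcnk3 was lower, and no other thermogenic gene was called by edgeR over the 12 libraries. At an unadjusted p under 0.05 a further 2 were lower or higher, Dio2 and Ppargc1a, and DESeq2 also called Ppargc1a (0.41, adjusted p = 0.0424). Of all 13624 genes tested, 37.4% were called, 19.1% higher and 18.3% lower, and 6.61% passed both cutoffs. Of 7 thermogenic genes tested, 2 were called, both lower, and 1 passed both cutoffs, with a median log2 fold change of −0.29 beside 0.02 over all genes. Otop1 met the filter of 0.321 CPM in 6 WT and 3 FI3KO libraries, so it passed through WT alone.
The replicate numbers of these libraries fall into 2 sets that differed in many genes, 1 and 2 against 3 to 6, and the labels give no reason for this. How clean the split was depended on the measure. By chi-square per degree of freedom, WT TRAP 3 and 5 were farther apart (153) than WT TRAP 1 and 6 (90.1). By the median chi-square over genes the split was clean in WT. Pairs within WT replicates 3 to 6 were at most 5.55, and pairs between the WT sets at least 6.63. By that median it was not clean in FI3KO, where TRAP 4 and 5 (7.07) were farther apart than TRAP 2 and 6 (5.64). The non-coding genes Gm42418 and Gm26917 took 9.62% and 6.69% of reads in FI3KO TRAP 1 and 2, 4.77% in WT TRAP 5 and 0.454% to 1.92% in the other TRAP libraries. The sum of the epididymal markers was 1.39 to 1.45 CPM in FI3KO TRAP 1 and 2 and at most 0.299 in the others. The part of these in the results was not tested. In replicates 1 and 2 alone 3.56% of 14040 genes were called, in replicates 3 to 6 alone 50.6% of 13692, and 26.5% of 13624 genes differed between the sets in their response to genotype (3613 genes, and 2033 without WT TRAP 2 or 2107 without WT TRAP 1). Of the 7 thermogenic genes tested, 2 were called in replicates 1 and 2, 5 in replicates 3 to 6, and 2 (Otop1 and Ppara) in the test of the difference. Each gene is therefore given in both sets.

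Otop1 was 2.75 to 17.2 CPM in WT TRAP (median 13.4) and 0.037 to 1.10 in FI3KO TRAP (median 0.312), with no overlap. The log2 fold change was −4.53 ± 0.61 (SE; edgeR adjusted p = 2.64e-04), and FI3KO TRAP 3 had a single read. In replicates 1 and 2 it was 2.75 and 3.59 CPM in WT against 0.752 and 1.10 in FI3KO (−1.71, edgeR adjusted p = 0.0416). In replicates 3 to 6 it was 13.3 to 17.2 CPM in WT (median 13.7) against 0.037 to 0.352 in FI3KO (−6.01, edgeR adjusted p = 3.01e-07). The responses differed by −4.31 ± 0.48 (edgeR adjusted p = 8.33e-05), since WT rose by 2.13 from the first set to the second (edgeR adjusted p = 1.82e-04) while FI3KO fell by 2.17 (edgeR adjusted p = 0.00547). Otop1 was thus lower in FI3KO in both sets, and its WT level itself differed between them.

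**Figure D3:**
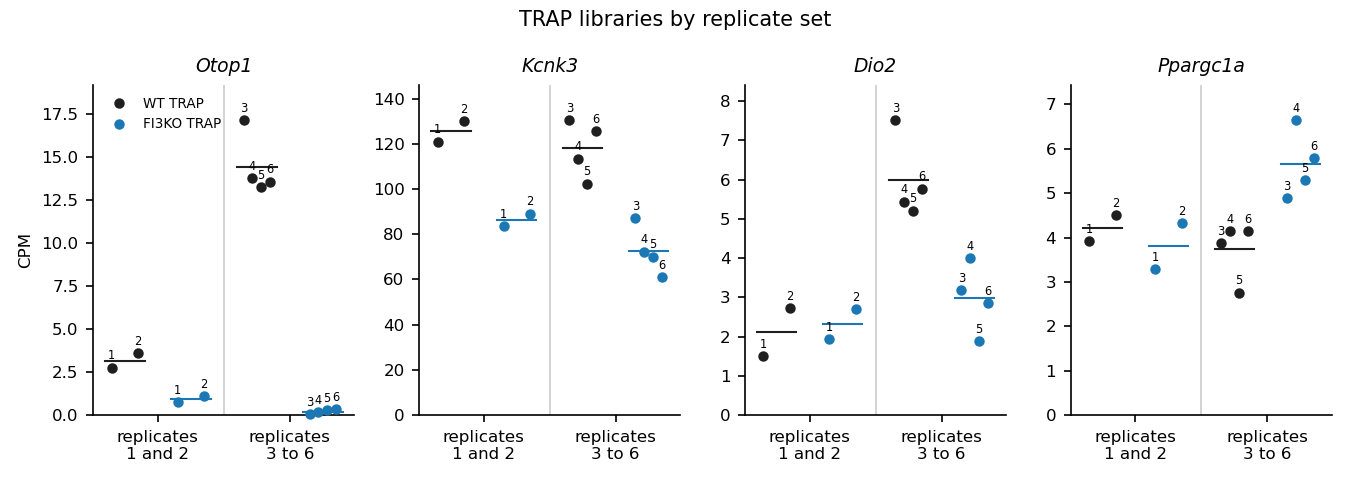
CPM of Otop1, Kcnk3, Dio2 and Ppargc1a in TRAP (vertical axes, from 0) by genotype (black, WT; blue, FI3KO) and replicate set. Points are libraries with their replicate numbers and short lines are the means of each set; Otop1 lies at 2.75 and 3.59 CPM in WT replicates 1 and 2 and at 13.3 to 17.2 in WT replicates 3 to 6, while Kcnk3 is lower in FI3KO in both sets.

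Kcnk3, the other channel, was 102 to 131 CPM in WT TRAP (median 123) and 61.1 to 89.2 in FI3KO (median 78), again with no overlap (−0.59 ± 0.098, edgeR adjusted p = 7.52e-04). It was lower in replicates 1 and 2 (−0.48, edgeR adjusted p = 0.0356) and 3 to 6 (−0.66, edgeR adjusted p = 3.88e-04), and the difference between the sets was −0.17 ± 0.16 (edgeR adjusted p = 0.453). Most of its reads came from the coding transcript Kcnk3-201, with 95.7% of the gene's TPM in WT TRAP and 92.9% in FI3KO. A gene on the opposite strand, Gm9899, overlaps Kcnk3 and the libraries do not keep strand, but it had at most 116 reads in any library.

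Among the regulators, Ppargc1a was 2.76 to 4.51 CPM in WT TRAP (median 4.03) and 3.29 to 6.65 in FI3KO (median 5.09), and 4 of 6 FI3KO libraries were above all WT libraries. The log2 fold change was 0.41 ± 0.16 (edgeR adjusted p = 0.0579), and 0.33 to 0.49 with a library left out (edgeR adjusted p = 0.0192 to 0.135). It was −0.09 in replicates 1 and 2 (edgeR adjusted p = 0.786) and 0.64 in replicates 3 to 6 (edgeR adjusted p = 0.00609), a difference of 0.73 ± 0.27 (edgeR adjusted p = 0.0616). Per length the rise was not seen over all transcripts, with 1.90 ± 0.29 TPM in WT and 1.86 ± 0.33 in FI3KO (SD, n = 6). The long transcript Ppargc1a-203 held 44.1% of the gene's TPM in WT and 66.1% in FI3KO. Its own level was 0.837 ± 0.17 TPM in WT and 1.23 ± 0.26 in FI3KO, with overlap. The short Ppargc1a-202 held 26.4% in WT and 20.3% in FI3KO from at most 5.16 and 6.91 reads in a library, so the gene's TPM is uncertain.
Ppara was 7.11 to 13.0 CPM in WT (median 10.3) and 6.69 to 13.0 in FI3KO (median 11.7), with wide overlap (0.10 ± 0.16, edgeR adjusted p = 0.647). Its response was −0.41 in replicates 1 and 2 (edgeR adjusted p = 0.281) and 0.38 in replicates 3 to 6 (edgeR adjusted p = 0.0312). The difference of 0.80 ± 0.27 passed the threshold (edgeR adjusted p = 0.0470), but it was lost when any of 10 of the 12 libraries was left out, with values of 0.50 to 0.86. Prdm16 was 4.47 to 7.41 CPM in WT (median 5.53) and 2.96 to 5.51 in FI3KO (median 4.78), which overlapped (−0.29 ± 0.17, edgeR adjusted p = 0.20), at −0.34 and −0.24 in the 2 sets.

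Among the effectors, Dio2 was 1.49 to 7.52 CPM in WT (median 5.33) and 1.88 to 3.99 in FI3KO (median 2.78). The groups overlapped and the log2 fold change was −0.71 ± 0.32 (edgeR adjusted p = 0.0924). In replicates 1 and 2 WT had 1.49 and 2.72 CPM and FI3KO 1.94 and 2.71 (0.19, edgeR adjusted p = 0.735). In replicates 3 to 6 WT had 5.21 to 7.52 CPM and FI3KO 1.88 to 3.99, with no overlap (−0.97, edgeR adjusted p = 0.00314), and the difference between the sets was −1.16 ± 0.42 (edgeR adjusted p = 0.0599). The WT level rose by 1.44 between the sets (edgeR adjusted p = 0.00579). Without WT TRAP 1 the fall over all libraries was −0.90 (edgeR adjusted p = 0.0115), and with WT TRAP 1 and 2 summed it was −0.87 (edgeR adjusted p = 0.0246).
Cidea was 0.265 to 0.697 CPM in WT (median 0.421) and 0.481 to 0.752 in FI3KO (median 0.588), which overlapped (0.38 ± 0.28, edgeR adjusted p = 0.296). Its level in replicates 1 and 2 was 0.697 and 0.633 CPM in WT and 0.752 and 0.483 in FI3KO (−0.05, edgeR adjusted p = 0.938). In replicates 3 to 6 it was 0.265 to 0.491 CPM in WT and 0.481 to 0.650 in FI3KO (0.71, edgeR adjusted p = 0.0565). Elovl3 had 0, 1, 4, 4, 3 and 3 reads in WT TRAP 1 to 6 and 0, 1, 0, 0, 1 and 1 in FI3KO TRAP 1 to 6, too few for the count test. On log2(CPM + 0.1) the difference was −0.60 (exact two-sided permutation test over 6 and 6 libraries, p = 0.0390 without adjustment, smallest possible 0.00216), and by pooled reads FI3KO was 0.204 of WT (95% counting interval 0.0379 to 0.721). The 4 WT libraries with more Elovl3 reads than any FI3KO library were those of replicates 3 to 6. Pitx3, on the opposite strand, overlaps Elovl3 and had up to 27 reads in WT TRAP and up to 5 in FI3KO TRAP, more than Elovl3 itself, and without strand the reads of the pair cannot be told apart.

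Marker sums moved with Otop1 across the TRAP libraries. The sum of the 17 macrophage markers was 46.5 to 47.6 CPM in WT replicates 1 and 2, 87.1 to 129 in WT replicates 3 to 6, 41.4 to 54.2 in FI3KO replicates 1 and 2 and 19.3 to 21.5 in FI3KO replicates 3 to 6. All 17 were detected in both groups, and of 14 tested 12 were lower in FI3KO and 1 higher (median −1.62), among them Ctss (−2.10) and Adgre1 (−1.74). The WT SVF cultures, with macrophage sums of 2720 to 2900 CPM, had 0.696 to 1.05 CPM of Otop1. They differ from TRAP in tissue, culture, diet and RNA preparation, so no reading of the TRAP values follows from them. In replicates 1 and 2 the macrophage sums of WT and FI3KO overlapped while Otop1 did not. The adipocyte marker sum was 52418 to 52864 CPM in WT replicates 1 and 2, 37411 to 43079 in WT replicates 3 to 6, 41470 to 46211 in FI3KO replicates 1 and 2 and 52662 to 56067 in FI3KO replicates 3 to 6. The fibroblast and progenitor sum was 970 to 976 and 1548 to 2198 CPM in the 2 WT sets and 969 to 1023 and 542 to 933 in the 2 FI3KO sets. In FI3KO replicates 1 and 2 the endothelial sum was 62.4 to 109 CPM, beside 23.8 to 51.1 in the other TRAP libraries. The part of these markers in the results was not tested.

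**Figure D4:**
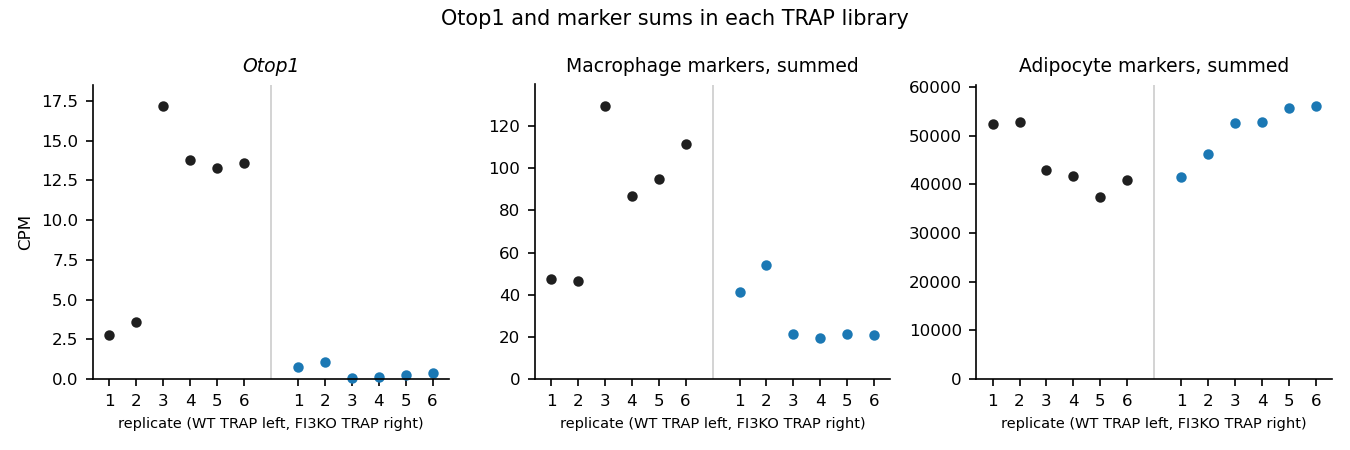
Otop1 and the summed levels of macrophage and adipocyte markers (vertical axes, CPM) in each of the 12 TRAP libraries (points), with WT on the left and FI3KO on the right of each panel and replicate numbers on the horizontal axes. Otop1 and the macrophage sum are both highest in WT replicates 3 to 6 (13.3 to 17.2 and 87.1 to 129 CPM), and in replicates 1 and 2 the macrophage sums of the genotypes overlap (41.4 to 54.2 CPM) while Otop1 does not.

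Lists of related genes in FI3KO TRAP are read beside the 19.1% of all genes called higher and 18.3% called lower. Of 20 adrenergic and cAMP signalling genes tested, 10 rose, 3 fell and 7 were not called (median 0.19). With replicates 1 and 2 alone 2 of 20 rose and 1 fell (median 0.07), and in replicates 3 to 6 alone, where 50.6% of all genes were called, 12 rose and 2 fell. Adrb3 went from 275 ± 130 to 850 ± 140 CPM (SD, n = 6; 1.66, edgeR adjusted p = 5.95e-04), with log2 fold changes of 0.81 (edgeR adjusted p = 0.0334) and 2.27 (edgeR adjusted p = 1.57e-06) in the 2 sets. Adrb1 (1.13), the β1-adrenergic receptor, and Pde3b (0.71), a phosphodiesterase that breaks down cAMP, rose too, and Map2k6 (−0.60) fell. Of 18 transcription factors and coactivators 6 rose and 0 fell by edgeR (7 and 0 at an unadjusted p under 0.05; median 0.15), beside 37.4% of all genes called. In replicates 1 and 2 alone 0 were called (3 higher and 4 lower at an unadjusted p under 0.05), and in replicates 3 to 6 alone 8 rose and 1 fell, close to the share of all genes called in that set. Ebf2 (0.73), the thyroid hormone receptor Thra (0.70), and Tfam (0.36) and Nrf1 (0.32), which act in the upkeep of mitochondria, had the largest changes among those called.
Of 13 other brown and beige adipocyte genes 5 fell and 2 rose (median −0.20), with Cpt1b (−1.34), which brings fatty acids into mitochondria, Acot11 (−1.10) and Hspb7 (−0.95) lower and P2rx5 (0.90) higher. Of 7 creatine and calcium cycling genes 3 fell and 1 rose: Alpl (−3.09), an alkaline phosphatase, Pm20d1 (−1.22) and the creatine kinase Ckb (−0.41) fell, and the creatine transporter Slc6a8 (0.51) rose. Among 12 PPARα targets 3 rose and 2 fell, with Cpt1a (−0.74) and Plin2 (−0.58) lower and Acot2 (0.73) and Ehhadh (0.44) higher. Of 10 repressors 3 rose and 2 fell, led by Zfp423 (−1.01), and of 5 secreted factors 0 were called by edgeR (1 at an unadjusted p under 0.05). Of 10 white adipocyte genes 5 rose and 3 fell, with Lep (−1.63) and Wfdc21 (−1.56) lower and Hoxc9 (1.00) and Retn (0.96) higher. Of 12 paralogs 4 fell and 2 rose, with Ucp2 (−0.92), Elovl1 (−0.55) and Kcnk2 (−0.38) lower and Ucp3 (0.75) higher. Few of these were called in replicates 1 and 2 alone, where edgeR called 3.56% of all genes: 1 of 13 other brown and beige adipocyte genes (higher), 1 of 7 creatine and calcium cycling genes (lower), 2 of 12 PPARα targets (1 in each direction) and 1 of 10 white adipocyte genes (lower). No repressor, secreted factor or paralog was called in that set, while 6 repressors, 1 secreted factor and 4 paralogs had an unadjusted p under 0.05.

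The IRF3 experiments share no control libraries, and their values are set side by side here. Otop1 was called lower both in FI3OE SVF (−1.25) and in FI3KO TRAP (−4.53). In each comparison it passed the low-count filter through WT, where it was higher. Prdm16 was called lower in FI3OE SVF (−0.38) and had −0.29 in FI3KO TRAP, where it was not called. Kcnk3 was lower in FI3KO TRAP (−0.59), while its interval in FI3OE SVF lay around 0 (−0.0037 ± 0.058). Cidea and Ppara, lower in FI3OE SVF at −4.01 and −1.12, had 0.38 and 0.10 in FI3KO TRAP and were not called there. Genes of the related lists went in opposite or in the same directions, and the examples here are not a count. Adrb3 fell in FI3OE SVF and rose in FI3KO TRAP, at −0.75 and 1.66. Ucp3 rose in both (1.43 and 0.75) and Zfp423 fell in both (−0.33 and −1.01). Whether responses differed between the experiments was not tested, since tissue and preparation differ too.

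Across the 12 TRAP libraries, the genes whose log2 CPM followed each thermogenic gene most closely were named by Pearson's r among up to 10912 tested genes, as a description in which the points share genotype and replicate set. For Otop1 they were Tnfaip2 (0.990), 1700047G03Rik (0.988) and the chemokine Ccl2 (0.986). For Kcnk3 they were Arhgap23 (0.989), Orm1 (0.981) and Nkd1 (0.977), and for Dio2 they were Armc6 (0.967), Snx6 (0.927) and Bysl (0.922). Those of Ppargc1a were Rhoa, Mdh2 and Syf2 (0.927 to 0.933), and those of Prdm16 were Atp2a3, Tns1 and Gng2 (0.918 to 0.951). Those of Ppara were Bcl9, Trappc9 and Farp1 (0.910 to 0.952), and those of Cidea were Ndufv3, Skp1a and Ddrgk1 (0.912 to 0.923).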

How the data were processed

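RNA-seq was analysed in 18 libraries, made after depletion of ribosomal RNA with a transposase kit that does not keep strand. The authors trimmed reads with fastp and quantified transcripts with Salmon 1.4.0 (GRCm38, per the labels). The deposited values are estimated counts, TPM and effective lengths in bases per transcript. Here 118733 transcripts were joined to genes through GENCODE M21 (117850 matched, 883 did not), estimated counts were summed per gene and rounded, and CPM was taken over each library's total, 21541334 to 40490283 reads. Intervals and floors cover counting error only. Groups came from the sample labels, which call the samples biological replicates without naming animals, so p-values measure the spread between samples. edgeR 4.0.16 (R 4.3.3; filterByExpr, TMM, quasi-likelihood F test, two-sided, Benjamini-Hochberg over all genes tested) compared FI3OE with WT SVF, FI3KO with WT TRAP, WT TRAP with WT SVF and, by interaction, the TRAP replicate sets. A gene was called at an adjusted p of at most 0.05, and by both cutoffs if it also changed by at least 1 on the log2 scale. Genes under the filter were tested by exact permutation on log2(CPM + 0.1) (scipy 1.17.1). Methods were tested on simulated data. Alternatives used DESeq2 1.42.0, other filters, a length offset, a replicate block and left-out libraries. Named genes were the 9 thermogenic genes, up to 4 called genes with the largest change per list and comparison, and the 3 closest neighbours in TRAP. The genes and lists were chosen with earlier results of these data known. Sequences are from RefSeq (GRCm38.p6).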

Additional observations from a re-analysis of the deposited data

Results flagged for a closer look

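Ucp1 in FI3KO TRAP 2 stood apart from its group, at 0.193 CPM (6 reads) where the other FI3KO libraries had 0 or 1 read. Ppargc1a in WT TRAP 5 stood apart at 2.76 CPM, below the other WT TRAP libraries. Of 18 groups of 6 libraries looked at in this way, chance alone sets apart about 1 in 20.

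Both genes with different responses in the TRAP replicate sets are listed here as well. The log2 fold change of FI3KO against WT in replicates 3 to 6 minus that in replicates 1 and 2 was −4.31 for Otop1 (edgeR adjusted p = 8.33e-05), where it was lower in FI3KO in all 6 libraries, and 0.798 for Ppara (edgeR adjusted p = 0.0470), where the sign differed between the sets. Across all genes 26.5% differed between the sets in this way (3613 genes, and 2033 without WT TRAP 2), and the replicate set cannot be told apart from whatever else differed between those libraries.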

How the results depend on the processing

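Over all alternatives, 464 log2 fold changes of the thermogenic genes kept their direction and their side of the threshold, 29 lost a call, 13 gained one and 21 changed sign. The count of genes called in FI3OE against WT SVF, 5960, was 3800 with a length offset, 1572 with all 18 libraries in one fit and 583 by both cutoffs (342 for the last in the fit of 18), and the thermogenic genes called went from 5 to 3, 2 and 3, and to 2 to 4 when a library was left out. In FI3KO against WT TRAP, 5095 became 500 in replicates 1 and 2 and 901 by both cutoffs. The 901 became 574 with at least 10 counts in every library, 1355 in the fit of 18, 1868 in replicates 3 to 6 and 191 in replicates 1 and 2. The thermogenic genes called there went from 2 to 1 with at least 10 counts, 4 in the fit of 18, 5 in replicates 3 to 6 and 1 by both cutoffs. In WT TRAP against WT SVF 13195 genes became 7719 by both cutoffs, and 7719 became 4035 with at least 10 counts. The interaction count, 3613, ranged from 2033 (without WT TRAP 2; 2107 without WT TRAP 1) to 3874 when a library was left out; its alternatives were chosen after seeing the data.
Signs changed mostly near 0. In SVF, Elovl3 was 0.0138 with no filter, 0.0241 with the length offset, 0.00998 in the fit of 18 and −0.165 to 0.151 with a library left out, Kcnk3 was 0.0124, 0.0013 in the fit of 18 and −0.0700 to 0.0427, and Dio2 −0.0522 to 0.444. In TRAP replicates 1 and 2, Ppargc1a was −0.0870, Ppara −0.415, Dio2 0.194 and Cidea −0.0536, and Ppara was −0.0111 with the length offset. The interaction of Prdm16 was −0.0041 to 0.25. The cause was not tested.
Shared replicate numbers did not pair the samples (correlations of −0.0458 to 0.0154 in SVF and −0.293 to 0.104 in TRAP). With a replicate block the genes called were 5658 in SVF, where 4 thermogenic genes were called and Elovl3 was 0.00463 and Kcnk3 8.5e-05, and 3632 in TRAP, where 2 were called. Ucp1 in all groups, Elovl3 in TRAP and Cidea in FI3OE SVF had at most 6 reads in a library, so their fold changes are imprecise.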
